A study of Mus musculus with 4 samples.

Results

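The peaks described here are those of 6 families of mouse genes whose symbols begin with Usp, Trim, Fbxo, Fbxl, Fbxw or Rnf followed by a digit, most of which encode ubiquitin ligase components or deubiquitinases. The rule chose 586 peaks of 170 genes among 33977 peaks of 10415 genes in the deposited table, by gene symbol alone. RNA fragments of cerebral cortex were pulled down with an antibody to N6-methyladenosine (m6A), a methyl group that cells add to adenosines of mRNA, and sequenced, and a peak is a stretch where such fragments pile up. Per the labels, 2 libraries came from mice after a sham procedure and 2 from mice given repetitive mild traumatic brain injury (rmTBI), with 1 antibody used for all 4. No source used here gives the strain, age, sex, injury schedule or time after injury. The libraries of each group are numbered 0 and 1, and the labels say neither what the numbers mark nor whether the libraries came from separate mice, so p-values reflect the spread among these 4 libraries alone, and that spread may be technical.

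Ubiquitin is attached to proteins by a chain of an activating E1 enzyme, a conjugating E2 enzyme and an E3 ligase that chooses the target, and it is removed again by deubiquitinases. Rnf and Trim genes encode RING-domain ligases, the Fbxo, Fbxl and Fbxw genes encode F-box proteins that bring targets to cullin-based ligases, and Usp genes encode ubiquitin-specific proteases. In neurons these enzymes are known for control of synapse growth, axon structure and the clearance of damaged mitochondria. The m6A mark is found mostly near stop codons and in 3' UTRs, often at a GGACT sequence, and affects the stability and translation of an mRNA. Not all members are such enzymes. Usp6nl matches the rule by its symbol and encodes a GTPase-activating protein, and Usp39 is a splicing factor that resembles a protease.

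The 3 start-site sequences with GGACT inside a peak are shown, since only sequence near annotated starts was available here. They were read from RefSeq windows of GRCm38.p6 that run from 250 bases before to 50 bases after each annotated start, and capitals mark GGACT.
Fbxo2: ggcagctccaGGACTcgccacccgc
Fbxo44: cccagttcggGGACTgaggcacagt
Rnf208: cccggcccagGGACTgctgacctct
The Fbxo2 sequence is chr4:148160628-148160652 on the plus strand, with the motif at -30 from the start. The Fbxo44 sequence is chr4:148159697-148159721 on the minus strand, with the motif at -122. The Rnf208 sequence is chr2:25242929-25242953 on the plus strand, with the motif at 10. The motifs at -30 and -122 lie before the annotated start, and so outside a transcript that begins there. Fbxo2, which encodes an F-box protein binding glycoproteins, and its homologue Fbxo44 are neighbours. Of the 586 peaks, 28 peaks of 17 genes overlapped such a window. The part of the window inside the peak held GGACT on the gene's strand in 5 peaks of 3 genes, and on the opposite strand in 1 peak of 1 gene. Over all 32851 windows of 300 bases, 26.1% held GGACT on the gene's strand and 45.5% on either strand. These shares are of whole windows, so they cannot be set against the member counts, which cover only the part inside a peak. A match is a description of the letters and not a measured site.

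Members lay mostly in coding sequence. By the authors' classes, 322 peaks (54.9%) were coding, 229 (39.1%) fell in 3' UTRs and 35 (5.97%) in 5' UTRs, where all peaks had shares of 50.4%, 39.7% and 6.24%. The families differed in this. Usp peaks were in coding sequence in 65.1% of cases and Fbxl peaks in 26.5%, with 58.8% of Fbxl peaks in 3' UTRs. No test was made of these shares, since overlapping peaks share reads.

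**Figure D1:**
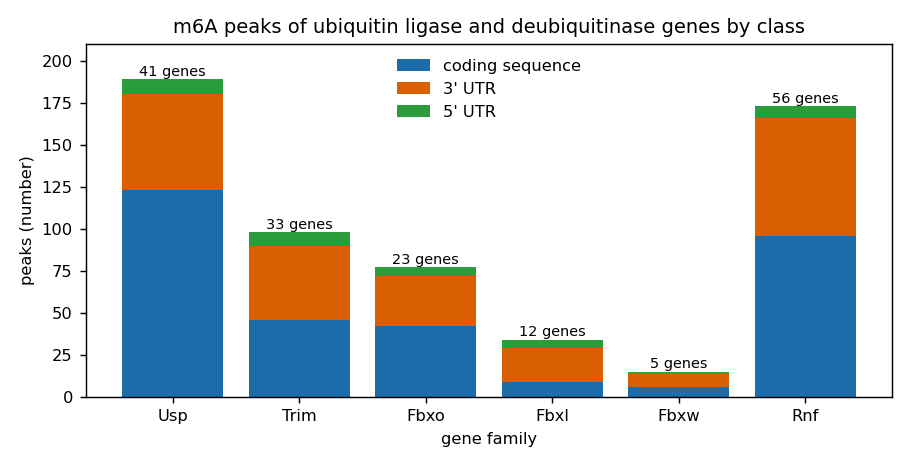
Bars give the number of deposited m6A peaks in each gene family, split by the authors' class, with the number of genes above each bar. Usp has 189 peaks in 41 genes and Rnf 173 peaks in 56 genes, and coding sequence is the largest class in Usp, Trim, Fbxo and Rnf.

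The median gene had 2 peaks among the members and among all genes. A single peak was found in 16.5% of member genes and in 26.6% of all genes. Usp29, an imprinted gene expressed from the paternal allele, had 20 peaks, and Usp34, a large protease linked to Wnt signalling, had 18. Rnf213, a very large ligase with an ATPase domain, and Usp27x, an X-linked protease, had 14 each. Peaks were called separately in sham and in rmTBI, giving 312 and 274 member peaks, and the same transcript region is therefore often listed in both sets. Regardless of strand, the 586 peaks formed 361 separate loci. The strongest Usp29 peak was a coding peak listed on the minus strand. It measured 63.2 and 52.9 CPM (counts scaled to library size) in sham libraries 0 and 1 and 56.6 and 45.8 in rmTBI libraries 0 and 1. The strongest Usp34 peak, also coding, measured 70.8 and 82.4 in sham and 87.9 and 87.3 in rmTBI. The groups overlapped at Usp29 and were apart at Usp34, where the log2 fold was 0.19 (standard error, SE, 0.23) and did not pass the test described below.

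In 10 member genes, among them Usp29, Usp34 and Rnf213, peaks were listed on both strands. The numbers of peaks given above for these genes include both strands. For example, 1 pair of Usp29 had 2090 and 2074 counts on the plus and minus strands, and 1 pair of Usp34 had 3845 and 3831. The 14 pairs on opposite strands that covered at least 80% of each other differed in counts by a median of 4.12% and at most 13.3%, so that reads of a gene and an overlapping gene on the other strand cannot be told apart here. Against RefSeq, 575 of the 586 peaks (98.1%) overlapped the span of the named gene, and 94 (16.0%) overlapped another gene as well. Of the peaks named below, those of Fbxo7 in the 3' UTR overlap Syn3, that of Trim32 Astn2, that of Trim46 Krtcap2, that of Usp29 Zim3, that of Usp49 Gm20517, the first of Usp54 1810062O18Rik and the longer of Rnf213 A930037H05Rik. The Rnf220 coding peak from 117288610 to 117289817 overlaps Gm12843.

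Levels differed widely between genes when set per length. Among the 389 member peaks of at most 500 bases, the median was 16.2 CPM per kilobase. The highest was a coding peak of Trim44, a Trim protein that lacks the RING domain, at 1070 and 1450 CPM per kilobase in sham libraries 0 and 1 and 1094 and 1491 in rmTBI libraries 0 and 1. The 3' UTR peak of Fbxl16, a neuronal F-box protein, followed at 511 and 446 in sham and 572 and 435 in rmTBI. A coding peak of Usp8, which acts on endosomes, stood at 246 and 339 in sham and 202 and 333 in rmTBI. In these 3 peaks the groups overlapped. They are the top 3 by level and were chosen after their values were seen. Since no library without the antibody was analysed here, a level joins the abundance of the transcript with its methylation. In bulk tissue, fewer cells of a type and less RNA per cell cannot be told apart.

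Libraries held 14437317 counts over peaks in sham 0, 26356562 in sham 1, 13753600 in rmTBI 0 and 26888072 in rmTBI 1, so depth differed by number and not by group. Markers of other tissue moved with the groups. All 28 peaks of 7 thalamic marker genes had a negative log2 fold in rmTBI, with a median of -2.30 and a summed level of 1176 and 1362 CPM in sham against 217 and 250 in rmTBI, and 10 of them were called, that is, had an adjusted p under 0.05 in the edgeR test given below. Striatal markers had a median of -0.97, oligodendrocyte markers -0.79 and choroid plexus markers -2.10, with none of their peaks called. Cortical neuron markers had a median of 0.33, with 919 and 1172 CPM in sham against 1242 and 1524 in rmTBI, and astrocyte, microglia and vascular markers had medians of 0.05, 0.07 and -0.02. No peak was listed for Gad1, Pvalb, Mag, Gfap, Pecam1 or Ttr. The part of these shifts in any member's difference was not tested.

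The first comparison asked which peaks differed between rmTBI and sham cortex. In the model of group alone, no member peak did at an adjusted p under 0.05. With the library number added to that model, 27 member peaks (4.67%) were called, against 10.6% of all peaks, as given in the last section. Calls between rmTBI and sham in the paragraphs below are from the model of group alone, in which differences by number add to the spread. Of 578 member peaks tested, 0 were called by edgeR (quasi-likelihood F-test, Benjamini-Hochberg adjustment over all peaks tested), against 29 of 33415 peaks overall (0.0868%), all lower in rmTBI. At an unadjusted p under 0.05 there were 3 member peaks, all lower, against 948 of all peaks (2.84%) in either direction and 2.11% lower, and DESeq2 called 0 member peaks and 139 of all peaks (0.416%). The smallest adjusted p of a member was 0.398.

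Member folds were small. The median log2 fold of rmTBI over sham was 0.00, with quartiles of -0.18 and 0.14, and 509 peaks (88.1%) lay within 0.5 of zero, against 86.9% of all peaks and a median of 0.02. Both rmTBI libraries lay below both sham libraries at 76 member peaks and above them at 57. Together these were 23.0% of the members, against 24.7% of all peaks (12.4% below and 12.3% above). The sign of the fold was opposite in the libraries numbered 0 and those numbered 1 at 49.0% of member peaks and at 39.6% of all peaks. Across member peaks, which are not independent, the folds within the numbers had a Pearson r of -0.0499, against 0.207 over all peaks.

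**Figure D2:**
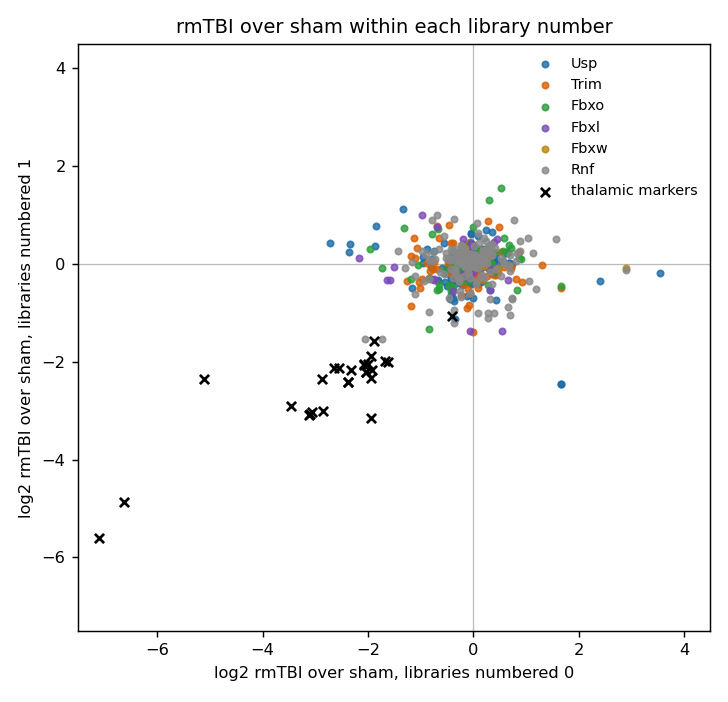
Each point is a tested member peak, coloured by family. Its log2 rmTBI over sham is on the x axis for the libraries numbered 0 and on the y axis for those numbered 1. Crosses are the 28 thalamic marker peaks, except that a Shox2 peak at -9.41 and -5.69 lies outside the plotted range. Member peaks centre on zero on both axes, and the thalamic markers lie below zero on both.

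Among ligases of the RING type, the lowest fold with the smallest p was at a short coding peak of Rnf220, a nuclear ligase of neural development, on chromosome 4 from 117489685 to 117489806. It measured 4.21 and 3.47 CPM in sham libraries 0 and 1 and 0.986 and 1.19 in rmTBI libraries 0 and 1. Both rmTBI libraries were below both sham libraries, with a log2 fold of -1.79 (SE 0.38, adjusted p = 0.398 in edgeR), and of -2.05 and -1.54 within the numbers. The other Rnf220 peak at this site, from 117489745 to 117489806, lies inside the first and shares its reads, and had a log2 fold of -1.58 (SE 0.62). The peaks elsewhere in the gene had smaller folds. The coding peak with the most counts, from 117285393 to 117285912, measured 43.1 and 33.2 CPM in sham and 41.1 and 27.2 in rmTBI, a log2 fold of -0.16 (SE 0.30). A further coding peak from 117288610 to 117289817 had a log2 fold of -0.04.

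The Rnf peak with the smallest p among those higher in rmTBI was a coding peak of Rnf213, at 1.14 and 1.17 CPM in sham and 1.97 and 2.19 in rmTBI. The groups did not overlap, and the log2 fold was 0.85 (SE 0.44, adjusted p = 1.000 in edgeR). A longer Rnf213 coding peak with more counts measured 9.91 and 7.17 CPM in sham and 11.8 and 7.84 in rmTBI, where the groups overlapped. That longer peak is listed on the minus strand and overlaps A930037H05Rik, whereas the first is listed on the plus strand.

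For the Trim ligases, a coding peak of Trim30a, an interferon-induced gene, measured 3.07 and 3.22 CPM in sham and 3.71 and 5.90 in rmTBI. Its log2 fold was 0.63 (SE 0.33), and from 0.24 to 0.89 without 1 library. A 3' UTR peak of Trim8, a regulator of inflammatory signalling, measured 3.64 and 4.32 in sham and 3.41 and 2.41 in rmTBI, a log2 fold of -0.48 (SE 0.33). Neither passed the test, and within the libraries numbered 0 the fold of Trim8 was -0.09.

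Of the F-box genes, Fbxo7, a Parkinson's disease gene acting in mitophagy, had the smallest p among the higher Fbxo peaks. Its 3' UTR peak on chromosome 10 from 86049720 to 86050259 measured 13.5 and 13.4 CPM in sham and 21.5 and 17.5 in rmTBI, without overlap of the groups. The log2 fold was 0.54 (SE 0.25, unadjusted p = 0.0679 in edgeR). A coding peak of the same gene had a log2 fold of -0.60. Fbxo30 had the smallest p among the lower Fbxo peaks, at 4.56 and 4.43 CPM in sham and 2.80 and 3.06 in rmTBI for a coding peak, a log2 fold of -0.61 (SE 0.29). Its median over 6 peaks was -0.54, with a range from -1.17 to 0.15.

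Fbxl20, a presynaptic F-box protein, gave both leading Fbxl peaks, in opposite directions. One 3' UTR peak measured 3.28 and 3.58 CPM in sham and 4.47 and 5.14 in rmTBI, and a second one further along the chromosome measured 4.35 and 3.88 in sham and 2.58 and 3.09 in rmTBI. The groups did not overlap at either, with log2 folds of 0.49 (SE 0.29) and -0.52 (SE 0.31), and neither passed the test. In the Fbxw family, the 3' UTR peak of Fbxw8, a partner of Cul7, had 2 and 22 counts in sham and 17 and 21 in rmTBI. One sham library was far lower than the other, and within the libraries numbered 1 its log2 fold was -0.09. The only lower Fbxw peak was a 5' UTR peak of Fbxw7, a tumour suppressor that targets cyclin E, at 91.9 and 123 CPM in sham and 86.5 and 126 in rmTBI, where the groups overlapped.

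In the Usp family, a coding peak of Usp54 measured 13.0 and 14.8 CPM in sham and 9.55 and 9.07 in rmTBI. Its log2 fold was -0.58 (SE 0.25, unadjusted p = 0.0487, adjusted p = 1.000 in edgeR), and both rmTBI libraries lay below both sham libraries. All 9 Usp54 peaks had negative fitted folds, and 7 of them had negative folds within both numbers. Of these, 4 are of the sham set and 5 of the rmTBI set. Some cover the same bases and share reads, so they are not 9 separate measurements. A coding peak of Usp31 measured 8.77 and 12.6 in sham and 11.2 and 19.9 in rmTBI, a log2 fold of 0.54 (SE 0.35), and the groups overlapped. Without 1 library that fold ran from 0.06 to 0.87.

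**Figure D3:**
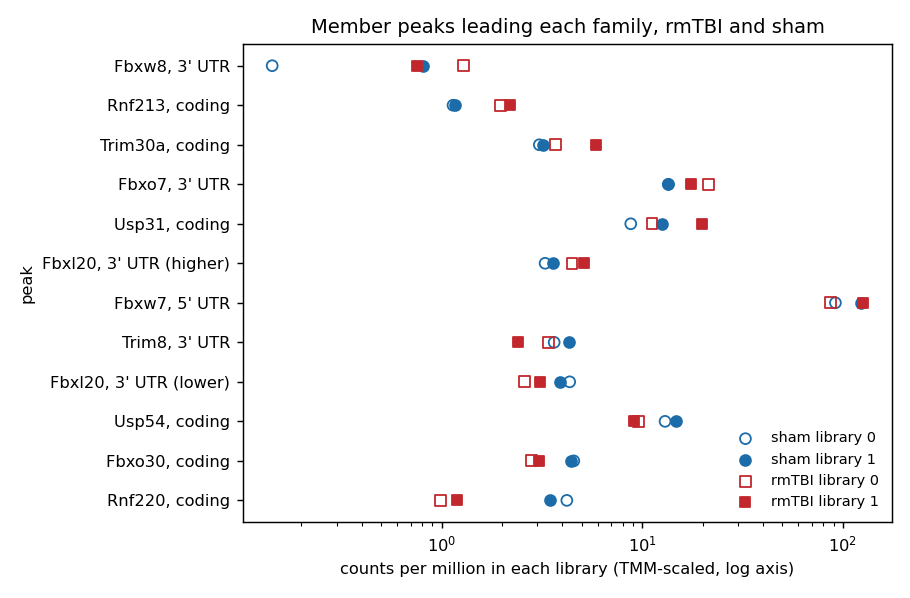
Points give the level of each peak in CPM on a log axis in the 4 libraries, open symbols for number 0 and filled ones for number 1, for the peak with the smallest p in each direction in each family. Sham and rmTBI are apart at the Rnf220 peak and overlap at the Fbxw7 and Usp31 peaks.

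Genes listed for roles in neurons (18 genes, of which 17 had peaks, all but Usp14) gave no call in 61 tested peaks, and their median log2 fold was 0.04. Usp9x, which stabilises synaptic and polarity proteins, had 189 and 245 CPM in sham and 176 and 248 in rmTBI at its strongest peak. Fbxw7 had 88.3 and 119 in sham and 100 and 138 in rmTBI at its 3' UTR. Trim2, a ligase linked to axon maintenance, measured 79.1 and 64.5 in sham and 81.3 and 73.0 in rmTBI. The groups overlapped at all 3. Fbxo41, a neuronal F-box protein, measured 48.8 and 63.6 in sham and 60.4 and 81.7 in rmTBI, with log2 folds of 0.31 and 0.36 within the numbers, and 0.34 (SE 0.27) in the fit, which ran from 0.10 to 0.54 without 1 library. Usp46, which acts on glutamate receptors, had a log2 fold of 0.25 (SE 0.25), and Usp30, a brake on mitophagy, of -0.29 (SE 0.26). Fbxo45, part of a ligase needed for axon growth, measured 45.2 and 64.4 in sham and 47.8 and 72.5 in rmTBI at its long 3' UTR peak, a log2 fold of 0.13 (SE 0.31). In the model of group alone, none of Fbxo41, Usp46, Usp30 and Fbxo45 passed the test. The groups were apart at Usp46 and Usp30 and overlapped at Fbxo41 and Fbxo45. Trim9, a ligase of axon branching, measured 18.2 and 17.8 in sham and 23.8 and 15.7 in rmTBI. Trim32, a ligase that is mutated in a muscular dystrophy, measured 24.6 and 21.3 in sham and 23.5 and 24.6 in rmTBI. Trim46, which organises microtubules of the proximal axon, measured 9.13 and 7.46 in sham and 9.48 and 7.55 in rmTBI. At all 3 the groups overlapped. Fbxo2 measured 23.2 and 20.6 in sham and 25.4 and 19.6 in rmTBI at the peak that holds the start-site sequence shown above. Over the strongest peak of each listed gene, log2 folds ran from -0.53 for Trim67 to 0.54 for Fbxo7. The other 3 lists gave no call. Chromatin and DNA damage members had a median of 0.04 over 51 peaks, RBR-type Rnf members 0.03 over 14, and membrane-bound Rnf members -0.08 over 40.

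Other genes of the ubiquitin system gave no call, where 0.0868% of all peaks were called. None of 14 peaks of E1 enzymes, 49 of E2 enzymes, 86 of HECT ligases, 137 of other RING ligases, 22 of the cullin core, 65 of Klhl adaptors, 55 of other deubiquitinases or 44 of proteasome subunits was called, by the same test. Medians ran from -0.07 for other deubiquitinases to 0.04 for other RING ligases. Unadjusted p under 0.05 was reached by 1 E2 peak in all these lists, against 2.84% of all peaks.

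**Figure D4:**
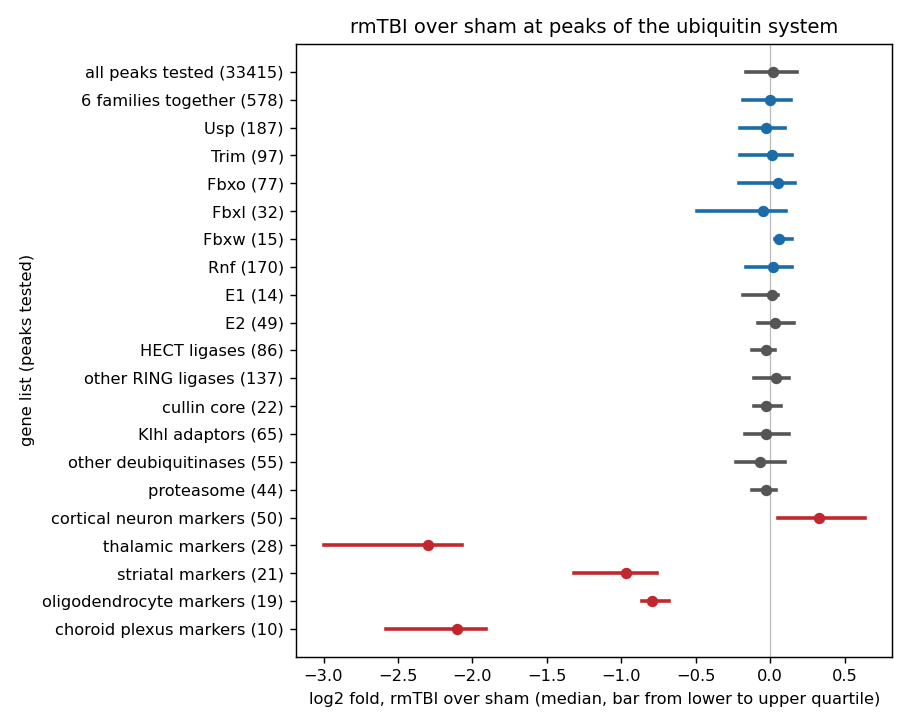
Points are the median log2 fold of rmTBI over sham for each gene list, and bars run from the lower to the upper quartile, with the number of tested peaks in brackets. The 6 families and the other ubiquitin lists have medians from -0.07 to 0.06, while thalamic markers have a median of -2.30 and cortical neuron markers of 0.33.

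Genes with peaks listed in 1 condition only did not have higher medians there. In 116 of 170 member genes (68.2%) a sham peak and an rmTBI peak overlapped on the same strand, against 63.1% of all genes. Peaks only in the sham set occurred in 25 genes. Taking the peak with the most counts in each gene, their median log2 fold was 0.06, with 14 of 23 tested genes above zero. Peaks only in the rmTBI set occurred in 12 genes, and their median by the same choice of peak was -0.23, with 4 of 11 above zero.

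The second comparison set library number 1 against number 0 within the groups, because depth followed the number. Many member peaks differed by number. Of 578 member peaks, 205 were called, 103 higher and 102 lower in number 1, which is 35.5% against 12736 of all peaks (38.1%, with 17.1% higher and 21.1% lower), by the same edgeR test with group in the model. Scaling by library size alone gave 130 higher and 71 lower member peaks, with the median of all peaks at 0.14 in place of 0.04, so the split by direction depends on the scaling. Without 1 library the count of member calls was 28 without rmTBI 1, 30 without rmTBI 0, 41 without sham 0 and 45 without sham 1. DESeq2 called 115.

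Coding and 3' UTR peaks were unlike. Of 321 tested member peaks in coding sequence, 61 were called higher and 80 called lower in number 1. In 3' UTRs 38 were called higher and 19 called lower. By sign alone, called or not, 172 coding member peaks were higher and 149 lower, and in 3' UTRs 137 and 87. Over all peaks the split of calls was 2482 higher and 4833 lower in coding sequence and 2858 and 1553 in 3' UTRs. By sign alone it was 7753 and 9172 in coding sequence and 8213 and 4998 in 3' UTRs. Span moved with it. Of 34 coding member peaks over 5000 bases, 25 were called lower, with a median of -0.31, and those up to 1000 bases had a median of 0.22. Over all coding peaks, 1929 of 2793 over 5000 bases were called lower, with a median of -0.43. Those up to 1000 bases had a median of 0.12. Across member peaks, which share libraries, the ratios in sham and in rmTBI had a Pearson r of 0.356, against 0.432 over all peaks. What the numbers mark, and the part of depth in these differences, was not tested.

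**Figure D5:**
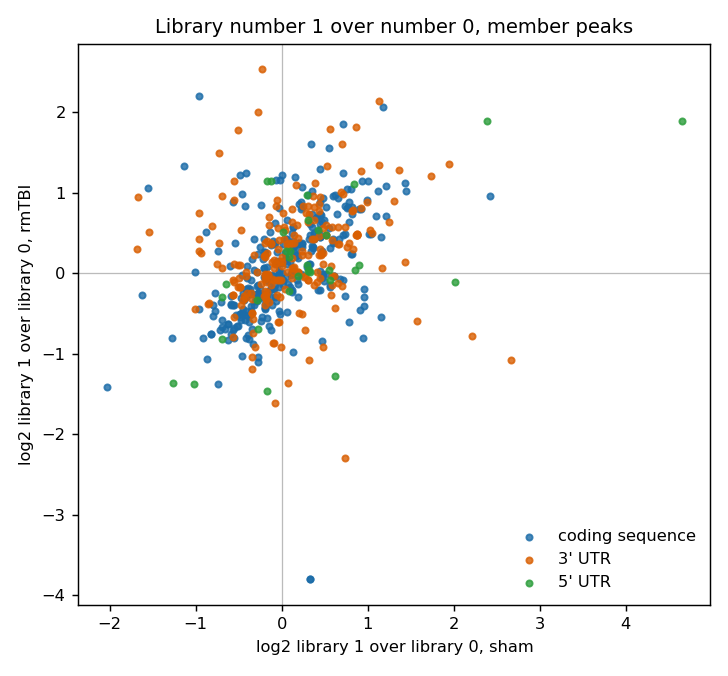
Each point is a tested member peak, with its log2 ratio of library 1 to library 0 in sham on the x axis and in rmTBI on the y axis, coloured by the authors' class. The ratios had a Pearson r of 0.356, with points on both sides of zero in each class.

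By family, 12 of 15 Fbxw peaks were called, 78 of 187 Usp, 28 of 77 Fbxo, 51 of 170 Rnf, 29 of 97 Trim and 7 of 32 Fbxl, against 38.1% of all peaks. That is 80.0% of Fbxw peaks, 41.7% of Usp, 36.4% of Fbxo, 30.0% of Rnf, 29.9% of Trim and 21.9% of Fbxl. Median counts per peak in sham 1 were 863 for Fbxw, 323 for Usp, 193 for Fbxo and 187 for Rnf. They were 109.5 for Trim and 106.5 for Fbxl, against 209 over all peaks. The 15 Fbxw peaks belong to only 5 genes and come from both the sham and the rmTBI set. The part of counts in these shares was not tested. Of 167 genes with a tested peak, 32 had calls only upward, 48 only downward, 15 both and 72 none. These are 19.2%, 28.7%, 8.98% and 43.1%, where all 10209 genes tested had 17.4%, 26.1%, 9.24% and 47.3%. Trim44 was one with both. Its coding peak rose in number 1 by 0.44 (SE 0.04), from 449 to 609 CPM in sham and from 459 to 626 in rmTBI, while its 3' UTR peak fell by 0.42 (SE 0.09), from 42.1 to 33.1 in sham and from 45.5 to 32.4 in rmTBI. Fbxw7 rose by 0.45 (SE 0.06) at one 3' UTR peak, and a second 3' UTR peak had a log2 ratio of -0.25 (SE 0.09).

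The highest fitted ratios were at peaks with few counts. A 5' UTR peak of Usp53, with 0 and 24 counts in sham and 2 and 19 in rmTBI, was called at an adjusted p of 0.0424 in edgeR. It was not called without the filter on low counts (0.0540), without group in the model (0.0670) or with any 1 library left out (0.0839 to 0.256). Fbxo28 rose from 1.43 to 3.29 CPM in sham and from 0.606 to 2.66 in rmTBI, a log2 ratio of 1.58 (SE 0.43, adjusted p = 0.000896 in edgeR). Trim36, a ligase bound to microtubules, rose from 0.499 to 2.05 CPM in sham and from 0.531 to 1.44 in rmTBI, with an adjusted p of 0.0261. With any 1 library left out, Trim36 was not called (adjusted p from 0.137 to 0.312 in edgeR), and Fbxo28 was called only without sham 0 (0.0499, against 0.141 to 0.227). Without group in the model, with all 4 libraries, neither was called (0.0547 and 0.0589 in edgeR). The runs of Usp53, Trim36 and Fbxo28 with 1 library left out also had no group in the model. Rnf182 (3 and 36 counts in sham, 5 and 22 in rmTBI) and Usp43 (5 and 23 in sham, 3 and 32 in rmTBI) did not pass.

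The lowest called ratio was at a coding peak of Usp39, a splicing factor, which fell from 5.13 to 1.24 CPM in sham and from 3.94 to 1.47 in rmTBI, a log2 ratio of -1.73 (SE 0.35). Trim39 fell from 11.8 to 4.94 in sham and from 13.6 to 5.32 in rmTBI, and Usp49, which acts on histone H2B, from 18.8 to 9.29 and from 22.9 to 8.78. Trim23, a ligase that is also an ARF-type GTPase, fell from 4.99 to 3.00 and from 6.67 to 2.55. With 1 library left out, Trim23 was not called (adjusted p from 0.0503 to 0.147 in edgeR), Usp39 was not called without sham 0 (0.0632), and Trim39 and Usp49 were called in each case. Those runs with 1 library left out also had no group in the model. Usp38, with 5 and 13 counts in sham and 16 and 2 in rmTBI, went in opposite directions and was not called. Outside the families, 20 of 44 proteasome peaks were called lower in number 1 and 6 called higher, against 21.1% and 17.1% of all peaks.

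The authors' deposited table gives a log2 value per peak from a test that is not named. At the members it followed the ratio of the rmTBI number ratio to the sham number ratio (Pearson r = 0.996, with 96.6% within 0.1 after an offset of 0.04) and not rmTBI over sham (r = -0.310). In the authors' deposited lists, 6 of 277 higher peaks and 3 of 146 lower peaks were members, which is 1.02% and 0.512% of members against 0.815% and 0.430% of all peaks. The smallest adjusted p of a member in the authors' deposited table was 0.998. Higher entries of the authors' deposited list were Trim59 at 1.28, Fbxl19 at 2.47, Usp2 at 2.30, Fbxo45 at 1.46, Usp51 at 3.08 and Rnf144b at 1.29. Lower entries of that authors' deposited list were Fbxw8 at -3.22, Usp40 at -4.24 and Rnf41 at -1.49.

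The Usp2 peak, in the 3' UTR of a clock-regulated protease, had 63 and 74 counts in sham and 16 and 97 in rmTBI. Trim59 had 69 and 129 in sham and 30 and 143 in rmTBI, and Rnf144b 51 and 148 in sham and 21 and 156 in rmTBI. In CPM, rmTBI library 0 was the lowest of the 4 libraries at each of these 3 peaks. Fbxl19 had 21 and 29 in sham and 4 and 32 in rmTBI, and Usp51, which acts on histone H2A, 13 and 22 in sham and 2 and 30 in rmTBI. Usp40 had 1 and 18 in sham and 16 and 16 in rmTBI, and Rnf41 48 and 89 in sham and 71 and 49 in rmTBI. None of these 9 peaks was called between rmTBI and sham, with log2 folds from -0.69 for Fbxl19 to 1.06 for Usp40. Without 1 library these ran from -2.03 to -0.14 for Fbxl19 and from 0.37 to 3.48 for Usp40.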

How the data were processed

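Anti-m6A libraries of mouse cortex, 2 sham and 2 rmTBI, were grouped by the labels. The authors deposited whole-number counts per peak that are not normalized, with a log2 value, p-value and adjusted p-value per peak. STAR, DESeq2 and GRCm39 appear, without roles, in the submitters' processing notes; the peak caller, counter and strand setting: not given in the sources used here. Coordinates match RefSeq GRCm38.p6 genes and are printed as GRCm38 positions. Counts of all 33977 peaks were fitted with edgeR 4.0.16 in R 4.3.3 (TMM, filterByExpr, quasi-likelihood F-test, Benjamini-Hochberg over 33415 tested peaks, threshold 0.05), with group alone for rmTBI against sham (2 residual degrees of freedom) and with group and number for the numbers (1). The standard error (SE) is the absolute log2 value over the root of F. Levels are CPM (TMM-scaled, from edgeR), and log2 values within a number use an offset of 0.5 counts. A peak of a gene overlapping another is uncertain. DESeq2 1.42.0 was an alternative.

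The rule for named peaks took every member called between rmTBI and sham (none); per family the smallest p in each direction; the 5 highest and 5 lowest number ratios; the members in the authors' lists; the strongest peaks of the 3 genes with most peaks and of the neuronal list (Rnf213 stands for a tie with Usp27x). Further peaks of these genes, and those of Trim44, Fbxl16 and Usp8, were chosen after their values were seen. The members and lists were chosen with earlier results of these data known. One further gene list is not reported here. On data simulated from these counts, 2-fold, 4-fold and 8-fold changes between groups were called in 17.9%, 89.6% and 100% of changed peaks of 33045 tested, and between numbers in 85.1%, 98.5% and 100% of 33087. The changed peaks were drawn only from peaks with higher mean counts, so these rates do not cover peaks with few counts.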

Additional observations from a re-analysis of the deposited data

Results flagged for a closer look

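At 5 of the named member peaks the ratio of library number 1 to number 0 had opposite directions in sham and in rmTBI, by at least 0.5 on the log2 scale in each. The difference was not tested, and each ratio rests on 1 library per side. For Usp2 the log2 ratio was -0.73 in sham and 1.49 in rmTBI. Fbxo45 had -0.81 in sham and 0.59 in rmTBI at its short 3' UTR peak, with 81 and 90 counts in sham and 44 and 141 in rmTBI. Fbxl19 had -0.51 and 1.78, the latter from 4 and 32 counts. Fbxw8 had 2.21 and -0.78 with 0.5 added to each count, and its sham ratio of 2 to 22 counts has an exact 95% counting interval from 0.47 to 5.63. Usp40 had 2.66 and -1.08, and its sham ratio of 1 to 18 counts has an interval from 0.54 to 8.59. The intervals cover counting error only. All 5 are in the authors' deposited lists, whose log2 value follows this same difference of ratios.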

How the results depend on the processing

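Between rmTBI and sham, 0 member peaks were called under every alternative run except the replicate block. With the library number as a replicate block, 27 member peaks of 16 genes were called (4.67%), against 3553 of all peaks (10.6%). The deviations of sham 0 and rmTBI 0 from their group means had an r of 0.432 over 33415 peaks. Counts were closest between libraries of the same number. The chi-square over peaks per degree of freedom was 7.9 for sham 0 with rmTBI 0 and 12.6 for sham 1 with rmTBI 1. It was from 30 to 37.1 for the other pairs. There are only 2 pairs, and the labels do not say what a number marks. Called under the block among named peaks were Rnf220 (-1.77), Usp54 (-0.60), Usp31 (0.55), Fbxo7 (0.52), Fbxo41 (0.34), Fbxw7 (0.20) and Usp34 (0.18); Fbxo45 turned to 0.01 and Rnf41 to -0.13. Of all peaks, 29 were called, 139 by DESeq2, 2 with library-size scaling, 17 in the rmTBI set alone, and 0 with at least 10 counts in every library (855 at an unadjusted p under 0.05); leaving out 1 library gave 82 (sham 1), 92 (rmTBI 0), 121 (sham 0) and 122 (rmTBI 1), where the lone library of a group is assumed to vary like the other group. The member median of 0.00 was -0.03 in the rmTBI set and from -0.09 to 0.00 without 1 library. Between the numbers, 205 member and 12736 of all peaks became 115 and 6944 with DESeq2, 96 and 5485 without group in the model, 83 and 5385 with the peaks called in rmTBI, 110 and 6797 with those called in sham, and 28 to 45 and 1575 to 2748 without 1 library. The median ratio of 0.10 was 0.20 with library-size scaling and from 0.03 to 0.10 without 1 library. Between the numbers, all runs without 1 library also left group out of the model. Without 1 library the log2 fold of these uncalled peaks changed sign: Fbxw7 (5' UTR) from -0.32 to 0.21, Trim59 from -1.08 to 0.08, Fbxo45 (short) from -0.44 to 0.36, Usp51 from -2.45 to 0.31, Rnf144b from -1.52 to 0.28, Rnf41 from -0.93 to 0.69, Rnf213 (longer peak) from -0.13 to 0.47, Trim2 from -0.03 to 0.25, Trim3 from -0.17 to 0.46, Trim9 from -0.21 to 0.40, Trim32 from -0.03 to 0.16, Trim46 from -0.14 to 0.20, Fbxo2 from -0.17 to 0.21, Fbxo45 (long) from -0.20 to 0.42, Fbxw7 (3' UTR) from -0.05 to 0.43, Fbxw11 from -0.35 to 0.50, Usp9x from -0.30 to 0.18 and Rnf220 (peak with the most counts) from -0.50 to 0.11. The leading Rnf220 and Rnf213 peaks kept their sign, from -1.95 to -1.67 and from 0.76 to 0.91. The cause of these changes was not tested. The share of genes with overlapping sets stayed at 68.2% when 0.5 of the shorter peak had to overlap. In the simulation, whose changed peaks left out those with few counts, 2-fold changes between groups were called in 17.9% of cases.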
